A study of Mus musculus with 12 samples.

Results

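Myelin and oligodendrocyte genes were followed through the amygdala of individual mice of an inbred strain. The 9 genes were Mbp, Mog, Mag, Mobp, Cnp, Cldn11, Mal, Olig1 and Olig2, of 47729 genes in the deposited table, chosen by name and matched by Ensembl identifier to the GENCODE M21 annotation. All 9 had a row and all 9 passed the filter on low counts. RNA came from the amygdala of 12 female C57/BL6 mice, age-matched and with no treatment or engineered allele given in the labels, with both sides of each brain in 1 library per mouse. Every mouse had first been scored in 3 behavior tests: a social interaction test with a stranger mouse (SIT), a box with a dark and a lit side (LD) and an elevated plus maze (EPM). Mice 3, 7 and 12 are labelled less anxious, mice 1, 4, 8 and 11 anxious, and mice 2, 6, 9 and 10 more anxious, and mouse 5 carries no group. The study left mouse 5 out as an outlier in a principal component analysis of expression. In its library 23768 genes had a read, against 26378 to 28196 in the grouped mice. The labels are a prediction: the study drew the groups from tertiles of a principal component of these same libraries, so a test between groups is not independent of how the groups were made. Label and scores can disagree: mouse 6, labelled more anxious, had the most time (46.6%) and distance (41.9%) in the light of the 12 mice. It also had the largest share of EPM time on the open arms (29.2%), so the groups are not an ordering by scored behavior. The behavior scores were taken apart from the expression values. The study chose the grouping component, however, because it correlated with the EPM and LD measures. Groups and these scores are therefore linked.

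Oligodendrocytes wrap axons of the central nervous system in myelin, a compacted stack of membrane that insulates the axon. Mbp (myelin basic protein) and Mobp are proteins of compact myelin that hold its inner membrane faces together, and Cnp (a cyclic nucleotide phosphodiesterase) keeps the cytoplasm-filled channels of the sheath open. Cldn11 is the claudin of myelin tight junctions and Mal a lipid-raft protein of myelin membrane traffic. Mag lies on the membrane next to the axon, where it binds axonal glycans, and Mog on the outermost surface of the sheath. Olig1 and Olig2 are basic helix-loop-helix transcription factors that specify the lineage and are present in its precursors as well as in its mature cells, whereas the other 7 genes belong to cells that myelinate. In whole tissue, fewer oligodendrocytes and less RNA per oligodendrocyte cannot be told apart.

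The deposited values are estimated counts, and the 12 libraries summed to between 31745630 and 45142355 of them. All levels are CPM, counts scaled to a common library total with TMM factors of the 11 grouped mice, and mouse 5 was scaled with all 12 libraries. The 10 marker genes of amygdala nuclei were read in every group, at 547 to 879 CPM in sum per grouped mouse, and the 14 neuronal genes summed to 7687 to 9887 CPM. Sst (mean 323 CPM), Nr2f2 (125 CPM) and Meis2 (113 CPM) were the highest of the 10 and weigh most in their sum. How far the dissected tissue was amygdala was not tested. The 8 genes of Schwann cells, which make peripheral myelin, summed to 22.6 CPM or less, with Foxd3 at 0 in all 11 mice. The 8 pituitary genes summed to 57.5 CPM in mouse 4 and to 18.7 CPM in mouse 11, against 2.64 to 6.57 CPM in the other 9 grouped mice.

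Of the 9 genes, Mbp had by far the highest level for its length. Per kb of merged exon, the mean over 11 mice was 155 CPM ± 32.6 (SD) for Mbp, 57.7 ± 14.2 for Mobp and 38.5 ± 8.69 for Cnp. Then came Olig1 at 33.3 ± 5.50, Mal at 31.2 ± 7.40, Cldn11 at 28.9 ± 5.62, Mag at 18.2 ± 5.20, Mog at 12.3 ± 3.20 and Olig2 at 8.30 ± 1.60. Mbp was above Mobp, Mobp above Cnp, Cldn11 above Mag and Mag above Mog in 11 of 11 mice. Cnp, Olig1, Mal and Cldn11 could not be ordered: each was above the next in 7, 7 and 6 of 11 mice. Divided by the longest transcript in place of the merged exons, Mbp stood at 274 CPM per kb, Mobp at 120 and Cnp at 48.3, and Mag rose to 30.5, above Cldn11. The reads behind these levels ran from 24210 to 62183 per mouse for Mbp and from 420 to 1284 for Olig2, so counting error was small beside the spread between mice.

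On GRCm38, the mouse build called mm10 in the labels, Mbp (ENSMUSG00000041607) lies on the plus strand and has 16 annotated transcripts. Mobp (ENSMUSG00000032517) lies at chr9:120149707-120181484 on the plus strand and Mog (ENSMUSG00000076439) at chr17:37010743-37023398 on the minus strand. Mag (ENSMUSG00000036634) is at chr7:30899176-30914873 and Mal (ENSMUSG00000027375) at chr2:127633226-127656695, both on the minus strand. Cldn11 (ENSMUSG00000037625) is at chr3:31149920-31164324 on the plus strand. Olig2 (ENSMUSG00000039830, chr16:91225457-91228677) and Olig1 (ENSMUSG00000046160, chr16:91269772-91271933) are neighbours on the plus strand. Cnp (ENSMUSG00000006782, chr11:100574904-100591729, plus strand) overlaps Dnajc7 on the other strand, and Olig1 overlaps the noncoding Gm15966 on the other strand. Mbp overlaps the pseudogene Rpl21-ps8 and Mog the small RNA gene Gm22388, each on the other strand. Mobp overlaps Gm38642 on the same strand, which is not among the genes counted. The libraries were made with a stranded kit, but the strand setting of the quantification is not given in the sources used here. For these members a share of reads from the overlapping gene was not tested.

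The starts of myelin genes are known targets of SOX-family factors and of MYRF, a factor of mature oligodendrocytes. The sequences upstream of 4 members are shown: Mobp, Cnp and Mag, which held letters searched, and Olig2, which did not move with the myelin genes across mice. Mog, Cldn11 and Mal moved with the other myelin genes too, but held none of the letters and are not printed. RefSeq (GRCm38.p6) held a start for 7 of the 9 members. The letters searched on both strands were ACAAAG, a SOX core, CTGGCAC, a MYRF motif, and CAGCTG, an E-box of the kind that OLIG factors bind. Capitals mark the matches, no match overlapped another, and each piece ends before the annotated gene. Mobp is chr9:120149492-120149706, Cnp chr11:100574689-100574903 and Olig2 chr16:91225300-91225456, all plus strand, and Mag, from the most upstream of its 3 RefSeq starts, is chr7:30914923-30915172, minus strand.
Mobp: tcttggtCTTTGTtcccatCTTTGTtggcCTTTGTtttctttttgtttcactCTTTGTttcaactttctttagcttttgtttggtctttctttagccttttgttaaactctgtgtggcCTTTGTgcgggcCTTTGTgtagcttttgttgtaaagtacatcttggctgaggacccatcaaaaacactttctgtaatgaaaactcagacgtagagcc
Cnp: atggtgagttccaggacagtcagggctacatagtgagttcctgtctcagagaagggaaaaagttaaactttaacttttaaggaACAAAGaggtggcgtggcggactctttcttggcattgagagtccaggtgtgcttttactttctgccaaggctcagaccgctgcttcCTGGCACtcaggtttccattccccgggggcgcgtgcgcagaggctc
Mag: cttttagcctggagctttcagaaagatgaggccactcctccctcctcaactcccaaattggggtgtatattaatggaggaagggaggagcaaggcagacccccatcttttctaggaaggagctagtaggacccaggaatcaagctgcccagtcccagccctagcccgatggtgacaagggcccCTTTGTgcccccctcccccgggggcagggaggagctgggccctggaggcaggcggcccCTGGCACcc
Olig2: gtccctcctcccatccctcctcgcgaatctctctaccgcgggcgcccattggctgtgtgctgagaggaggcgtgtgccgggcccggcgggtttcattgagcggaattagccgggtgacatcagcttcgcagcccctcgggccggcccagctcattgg
The Mobp piece held the SOX letters 6 times, all on the minus strand as CTTTGT. Cnp and Mag held the SOX letters once and the MYRF letters once each. The printed Olig2 piece held none of the 3 motifs, nor did the 250 bases before the starts of Mog, Cldn11 and Mal, and CAGCTG was in no member. Of 32851 RefSeq starts, 16.5% had ACAAAG, 4.19% CTGGCAC and 13.0% CAGCTG in the same 250 bases, so 3 of 7 members with the SOX letters and 2 of 7 with the MYRF letters are descriptions of these windows only.

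Each myelin gene differed between mice by 1.76-fold to 2.55-fold from lowest to highest. The highest and the lowest mouse were both in the anxious group for Mbp and Mobp. They were in different groups for Mog, Mag, Cnp, Cldn11 and Mal. Mbp, the most abundant, stood at 1240, 1558 and 1622 CPM in less anxious mice 3, 7 and 12. In the anxious group it was 1636 CPM in mouse 1, 1318 in mouse 4, 987 in mouse 8 and 733 in mouse 11. In more anxious mice 2, 6, 9 and 10 it was 1162, 1349, 1385 and 1467 CPM. The highest and the lowest mouse of the series were both in the anxious group, 2.23-fold apart, and the ranges of all 3 groups overlapped. Group means were 1473 CPM ± 204 (SD, n = 3) in less anxious, 1168 ± 393 (n = 4) in anxious and 1341 ± 129 (n = 4) in more anxious mice. Mouse 5 had 1124 CPM.

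**Figure D1:**
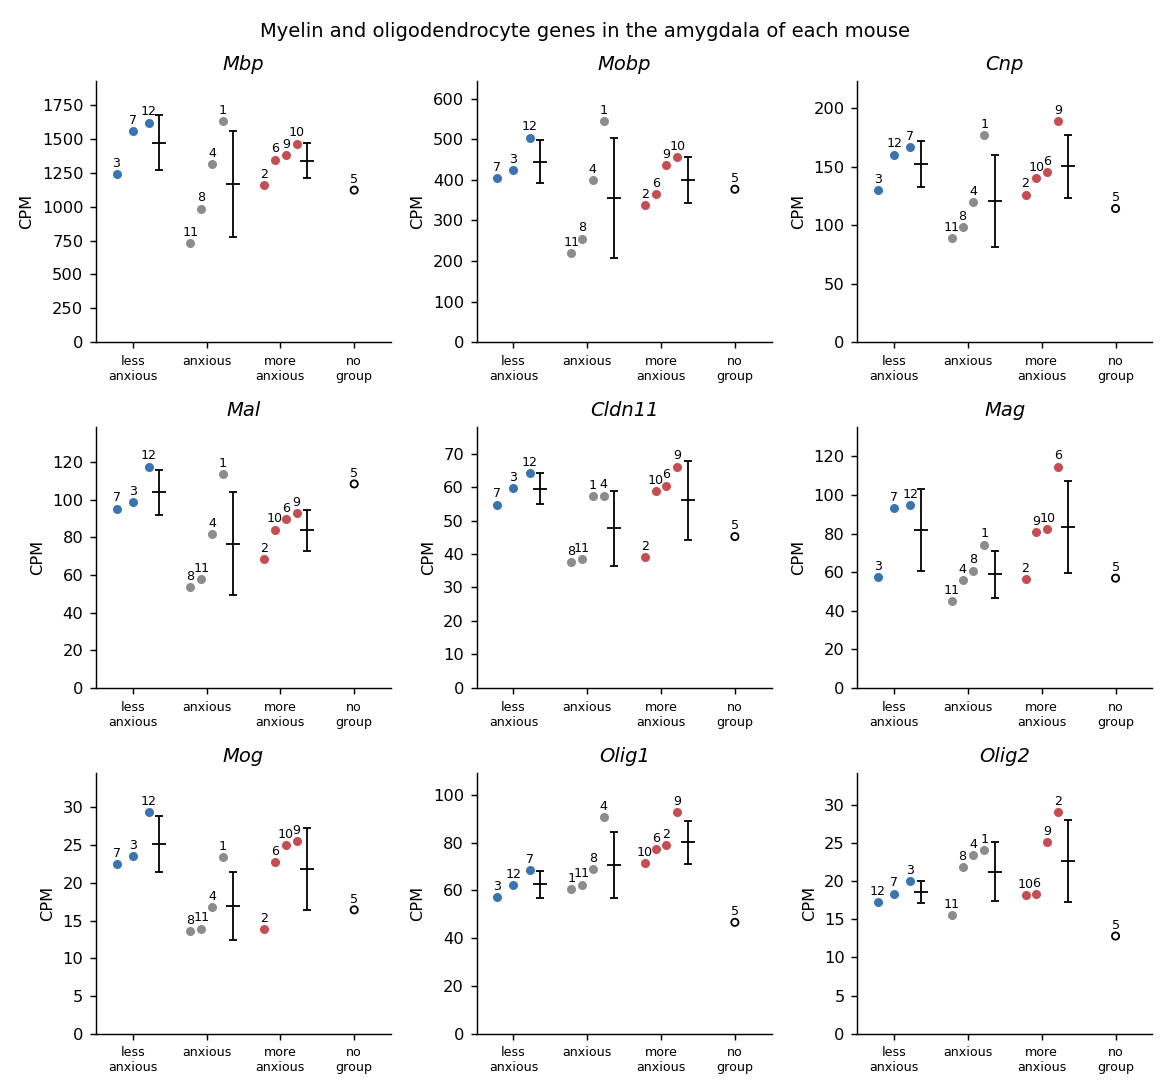
CPM of the 9 genes (y axis, from 0) in each mouse, by group on the x axis. Points are mice with their number, the black bar beside each group is its mean ± SD, and the open circle is mouse 5, which has no group. Mice 8 and 11 sit low and mouse 1 high within the anxious group for most myelin genes, and Olig1 and Olig2 are ordered differently.

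Mal, the raft protein, was 95.4, 98.8 and 118 CPM in less anxious mice 7, 3 and 12. More anxious mice 2, 10, 6 and 9 had 68.6, 84.1, 89.6 and 92.8 CPM. Every more anxious mouse was thus below every less anxious mouse, as was true of 3.83% of the 26963 genes tested. The anxious mice spanned both groups, at 53.7 CPM in mouse 8, 58.0 in mouse 11, 81.7 in mouse 4 and 114 in mouse 1. Mouse 5 had 108 CPM, among the highest for Mal, although it was among the lower mice for the other 6 myelin genes.

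Mag, the axon-facing glycoprotein, had the widest range of the 9 genes, from 45.0 CPM in mouse 11 to 115 CPM in mouse 6, a ratio of 2.55. Less anxious mice 3, 7 and 12 had 57.5, 93.1 and 94.8 CPM and more anxious mice 2, 9, 10 and 6 had 56.5, 80.7, 82.2 and 115 CPM. These 2 groups covered nearly the same range, and 3 of the 4 anxious mice, at 45.0, 55.8 and 60.8 CPM, were at its lower end, with mouse 1 at 74.3 CPM. Mobp ran from 220 CPM (mouse 11) to 545 CPM (mouse 1) and Cnp from 88.7 CPM (mouse 11) to 189 CPM (mouse 9). Mog ran from 13.6 CPM (mouse 8) to 29.3 CPM (mouse 12) and Cldn11, with the narrowest range of the 7, from 37.6 CPM (mouse 8) to 66.1 CPM (mouse 9). The anxious group had the lowest mean of the 3 for 7 of 7 myelin genes, and for each of them mouse 8 or mouse 11 was the lowest mouse of all 11.

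The same mice were low or high across the myelin genes. Mouse 11 was among the 3 lowest of the 11 mice for 7 of 7 myelin genes, and mice 8 and 2 for 6 each. At the other end, mouse 12 was among the 3 highest for 6 of 7 and mouse 1 for 4 of 7. Of these 5 mice, the low ones come from the anxious and more anxious groups and the high ones from the less anxious and anxious groups. Mice 7 (less anxious) and 9 (more anxious) came next, each among the 3 highest for 3 of 7. Mouse 9 was the highest for Cnp and Cldn11, and mouse 6, also more anxious, for Mag. No less anxious mouse was among the 3 lowest for any of the 7. Over the 21 pairs of myelin genes, Pearson's r of log2 CPM across the 11 mice was above 0 in all, from 0.56 to 0.94 with a median of 0.84. The closest pair was Mbp with Mobp (r = 0.94, permutation p = 4e-05, adjusted over all 36 pairs of members 0.00072, rho = 0.89, permutation p = 0.00051, n = 11), with r = 0.80 when the 2 mice farthest from the median of Mbp were left out. The loosest was Mag with Mobp (r = 0.56, permutation p = 0.0715, adjusted 0.123, rho = 0.49, permutation p = 0.13, n = 11).

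**Figure D2:**
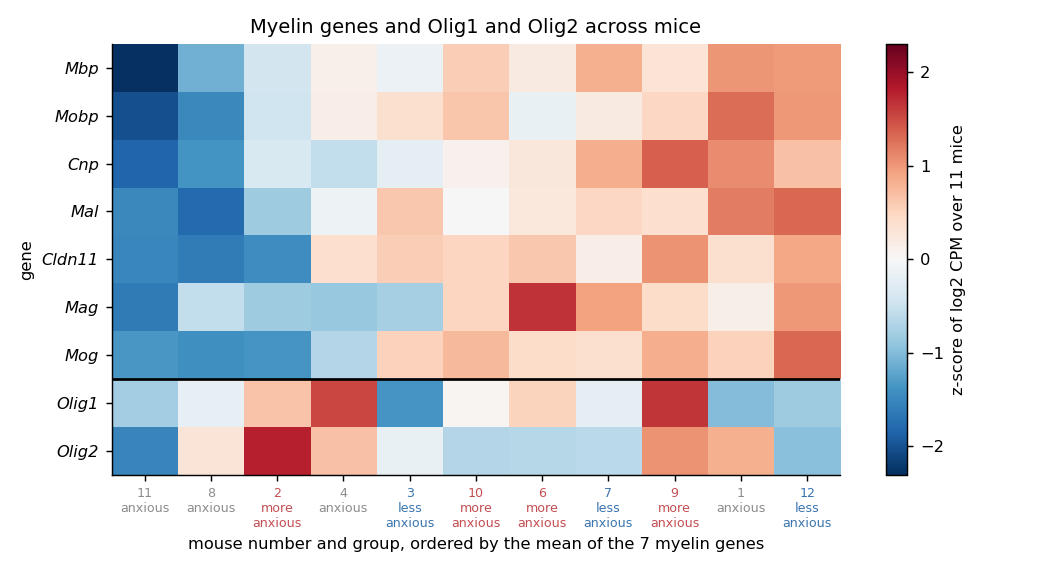
Log2 CPM of each gene (rows) as a z-score over the 11 grouped mice (columns, ordered by the mean of the 7 myelin genes, with the group under each number). Blue is below and red above the gene's mean. The 7 myelin genes above the line change from blue to red together, with mice 11, 8 and 2 at the low end and mice 1 and 12 at the high end, whereas Olig1 and Olig2 do not follow that order.

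Olig1 and Olig2, the lineage factors, did not follow the myelin genes. Over the 14 pairs of an Olig gene with a myelin gene, r lay between -0.24 and 0.23 with a median of 0.04, and no permutation p of r was under 0.475. By rho the pairs ran from -0.48 to 0.22, the lowest being Mal with Olig1 (permutation p = 0.136, adjusted 0.222). Without the 2 mice farthest from the median of Mal, r of that pair was -0.63. For Mbp with Olig2 r was 0.18 (permutation p = 0.611, adjusted 0.801, rho = -0.02, permutation p = 0.967, n = 11) and changed to -0.50 without the 2 mice farthest from the median of Mbp. Olig1 with Olig2 had r = 0.50 (permutation p = 0.115, adjusted 0.188, rho = 0.43, permutation p = 0.192, n = 11). Mouse 2 shows the split best: it had the highest Olig2 and was among the 3 lowest mice for 6 of 7 myelin genes. The ratio of Mbp to Olig2 CPM was 40.1 in mouse 2 and 94.2 in mouse 12. Mouse 11 was an exception, the lowest of the 11 for Olig2 as well as for Mbp.

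Olig1 was 57.2, 62.3 and 68.6 CPM in less anxious mice 3, 12 and 7. The more anxious mice 10, 6, 2 and 9 had 71.6, 77.3, 78.9 and 92.7 CPM. All 4 were above all 3 less anxious mice, as was true of 4.57% of all genes tested. The anxious mice had 60.6 CPM (mouse 1), 62.5 (mouse 11), 69.1 (mouse 8) and 90.9 (mouse 4), and mouse 5 had 46.7 CPM, the lowest of the 12. Olig2 was 17.2, 18.4 and 20.0 CPM in less anxious mice 12, 7 and 3 and 18.2, 18.3, 25.1 and 29.0 CPM in more anxious mice 10, 6, 9 and 2. Mice 9 and 2 stood above the less anxious range and mice 10 and 6 inside it. The anxious mice had 15.5 CPM (mouse 11), 21.9 (mouse 8), 23.4 (mouse 4) and 24.1 (mouse 1), and mouse 5, at 12.8 CPM, was again the lowest.

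No member passed the test between the anxiety groups. Over the 3 groups, edgeR's quasi-likelihood F-test with the score of the first principal component (PC1, computed here) as covariate gave the members adjusted p of 0.83 (Mag) to 0.978 (Mobp). None had an unadjusted p under 0.05. This test called 0.00742% of the 26963 genes (2 genes), and 6.35% had an unadjusted p under 0.05. The DESeq2 likelihood ratio test called 186 genes, again with 0 members among them. For more anxious against less anxious mice in the same edgeR fit, 0.0445% of genes were called (12 genes) and 8.83% had an unadjusted p under 0.05. Among the members 0 were called and Olig1 alone, 1 of 9, had an unadjusted p under 0.05.

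The size of each difference between the extreme groups was small beside its error for most members. The log2 fold change of Olig1, more minus less anxious, was 0.33 with a standard error of 0.14 (edgeR adjusted p = 0.504). It was 0.20 (edgeR adjusted p = 0.854) without mouse 9. Olig2 had 0.29 ± 0.19 (SE, edgeR adjusted p = 0.738), and 0.16 without mouse 2. The myelin genes had estimates below 0 with all 11 mice, the largest in size for Mal at -0.27 ± 0.23 (SE, edgeR adjusted p = 0.802). Mog had -0.17 ± 0.22, Mbp -0.14 ± 0.23, Mobp -0.12 ± 0.28, Cldn11 -0.06 ± 0.20, Mag -0.03 ± 0.24 and Cnp -0.01 ± 0.23 (SE). The standard errors for the myelin genes, 0.20 to 0.28 on the log2 scale, come from the fit of all 11 mice. The differences found for these genes were not told apart from 0. What size could have been detected was not tested. The shared sign did not hold with some single mice left out or under some other designs. Without mouse 2 the estimates were 0.12 for Mag, 0.08 for Cldn11 and 0.07 for Cnp. Cnp was also above 0 without mouse 7, 10 or 12, and Mag without mouse 12. With all 11 mice, Mag was above 0 without PC1 (0.03). With the groups as an ordered number both Mag (0.02) and Cnp (0.02) were above 0. The median over the 9 members was -0.06, against 0.0037 over all genes, and it was 0.07 without mouse 2 and -0.16, -0.14 and -0.15 without mice 3, 6 and 9.

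**Figure D3:**
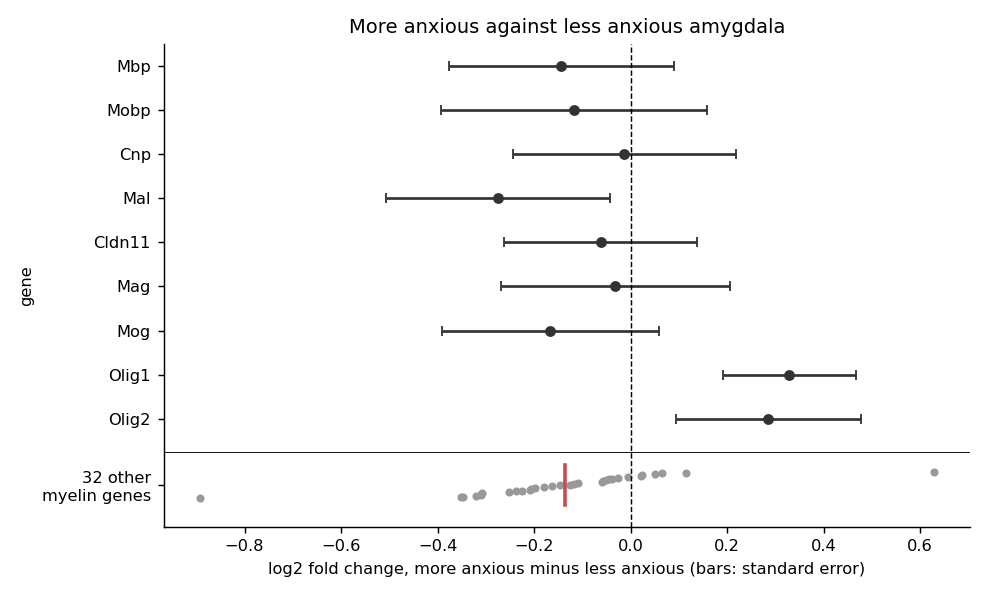
Log2 fold change, more anxious minus less anxious (x axis), of the 9 members with bars of 1 standard error, and of 32 other myelin genes as grey points with their median in red (-0.14). With all 11 mice the 7 myelin members lie below 0 with bars that for 6 of them cross 0, and Olig1 and Olig2 lie above 0 at 0.33 and 0.29. Without mouse 2, 3 of the 7 lie above 0. No gene shown passed the test.

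The wider lists of the lineage gave the same count of called genes, 0. Of 32 other genes of myelin and mature oligodendrocytes, 26 had a lower and 6 a higher estimate in more anxious than in less anxious mice, with a median log2 fold change of -0.14, and 3 had an unadjusted p under 0.05 (8.83% of all genes had). The 4 with the highest level per length were Tppp (a tubulin-binding protein) at 374 CPM in less and 295 CPM in more anxious mice (-0.32 ± 0.14 SE, edgeR adjusted p = 0.545), Qdpr, Car2 (carbonic anhydrase) and Plekhb1. The last 3 had log2 differences of 0.02, -0.04 and -0.13. Of 10 genes of the maturing lineage, 6 were higher and 4 lower (median 0.06), with 1, Gpr17, a receptor of premyelinating cells, at an unadjusted p under 0.05 (57.5 CPM in less and 44.4 CPM in more anxious mice, -0.41 ± 0.17 SE, edgeR adjusted p = 0.505). Sox10, the SOX factor of the whole lineage, was 25.7 CPM in less and 29.5 CPM in more anxious mice (0.18 ± 0.13 SE, edgeR adjusted p = 0.763). Of 12 genes of oligodendrocyte precursors 3 were higher and 9 lower (median -0.13), and 2 had an unadjusted p under 0.05. The highest of them per length, Ptprz1, had -0.24 ± 0.15 (SE).

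Lists of other cell types and brain regions leaned to one side between the same groups as well, the striatal-type list the most. All 8 striatal-type genes had lower estimates in more anxious than in less anxious mice (median -0.59), with 0 at an unadjusted p under 0.05. All 10 endothelial genes did (median -0.46, 5 at an unadjusted p under 0.05), with summed CPM of 229 to 288 in less, 179 to 208 in anxious and 163 to 199 in more anxious mice. So did all 12 microglial genes (median -0.17, 2 at an unadjusted p under 0.05), 11 of 12 astrocyte genes (-0.22, 3) and 7 of 8 choroid plexus genes (-0.40, 2). Lower estimates were also found for 7 of 10 amygdala genes (-0.18, 0), 5 of 7 thalamic genes (-0.09, 1) and 5 of 8 pituitary genes (-0.45, 0). Of 14 neuronal genes 10 had higher estimates (median 0.08), 4 of them at an unadjusted p under 0.05. Among all genes that share was 8.83%, and none of these genes was called. The part of such shifts in the estimates of the myelin genes was not tested.

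The behavior scores gave a test in which the group labels were not a term. It was not free of the grouping, because only mice with a group were fitted. The study had also chosen the grouping component for its correlation with the EPM and LD measures. Group differences and slopes on those measures are thus not separate results. The mouse without a group, left out by the study for its expression, was added only in fits named as such. Each of the 9 genes was fitted against each of 7 measures in edgeR, giving a log2 change per SD of the measure for each of 63 slopes, adjusted over all genes. No member was called for any measure, with adjusted p of 0.519 or higher, and 3 of the 63 slopes, all of Olig1 or Olig2, had an unadjusted p under 0.05. Among all genes 3.55% to 8.05% did, depending on the measure, so the count for the members is near the background.

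The largest slope was that of Olig2 on total entries in the EPM, the count of entries into any arm. The mouse with the fewest entries, mouse 2 with 6, had the highest Olig2 (29.0 CPM), followed by mouse 9 with 22 entries (25.1 CPM), mouse 1 with 15 (24.1 CPM) and mouse 4 with 24 (23.4 CPM). Mouse 12, with the most entries at 42, had 17.2 CPM and mouse 6, with 36, had 18.3 CPM. The lowest Olig2, 15.5 CPM, was in mouse 11 with 28 entries. The slope was -0.22 per SD of entries (SE 0.05, edgeR p = 0.00066, adjusted p = 0.519, n = 11). The edgeR test called 0% of the 26963 genes for this measure, and 6.97% had an unadjusted p under 0.05. The DESeq2 likelihood ratio test called 38 genes, and Olig2 was 1 of them (-0.22 ± 0.06 SE, DESeq2 adjusted p = 0.0382). Without mouse 2 the edgeR slope was -0.16 (p = 0.0155, adjusted p = 0.9997, n = 10). Without mice 2 and 1, the farthest from the median of the entries, it was -0.15 ± 0.06 (SE, edgeR adjusted p = 0.819).

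Olig2 also had a negative slope on the share of EPM time on the open arms, at -0.19 per SD (SE 0.06, edgeR p = 0.0082, adjusted p = 0.693, n = 11). Mice 2, 10, 9 and 1, with 2.33, 3.25, 4.30 and 6.73% open-arm time, had 29.0, 18.2, 25.1 and 24.1 CPM of Olig2, and mice 6, 12 and 7, with 29.2, 24.6 and 24.5%, had 18.3, 17.2 and 18.4 CPM. The 3 mice with the most open-arm time were thus all at 18.4 CPM or lower, and so was mouse 10, although its open-arm time was among the lowest. For open-arm time 0% of genes were called and 5.84% had an unadjusted p under 0.05, and DESeq2 called 43 genes and 0 members. With mouse 5, the lowest in Olig2, in the fit, the slope was -0.14 (edgeR p = 0.1003, n = 12), and without mouse 2 it was also -0.14 (edgeR p = 0.0521, n = 10). The slope of Olig1 was -0.06 ± 0.06 (SE) on open-arm time and -0.07 ± 0.07 (SE) on total entries.

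**Figure D4:**
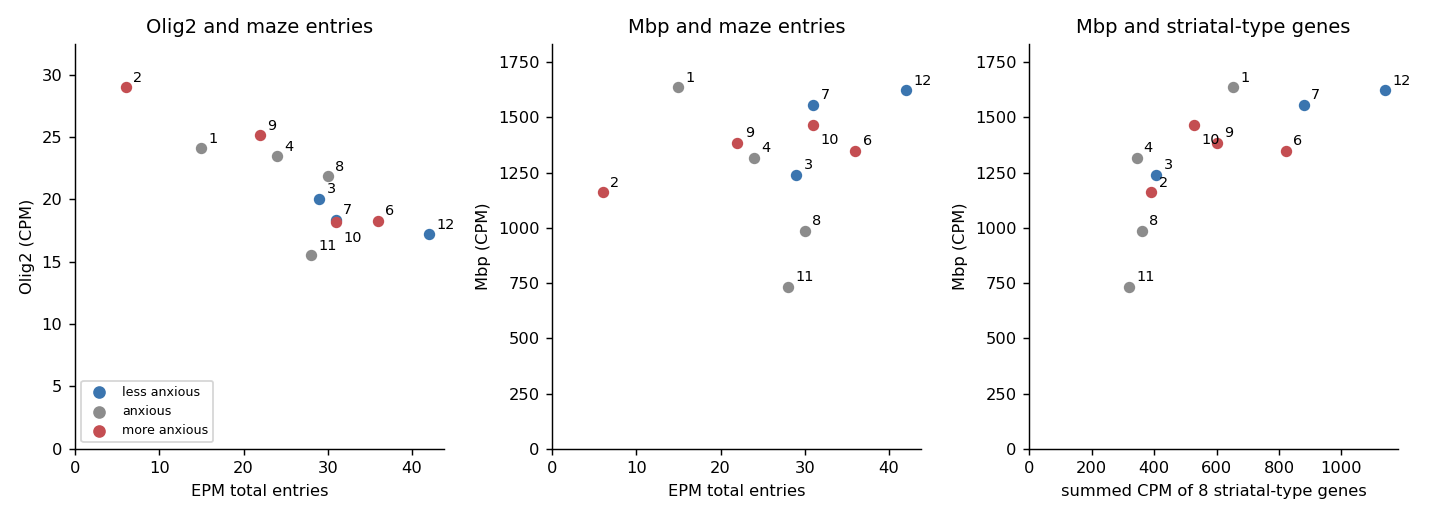
Left and middle, CPM of Olig2 and of Mbp (y axes, from 0) against EPM total entries, and right, Mbp against the summed CPM of 8 striatal-type genes. Points are the 11 grouped mice, numbered and colored by group. Olig2 falls from 29.0 CPM in mouse 2, with 6 entries, to 17.2 CPM in mouse 12, with 42, whereas Mbp shows no such order. Mice 11 and 8 are low in both Mbp and the striatal-type genes.

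In the LD, 7 of 7 myelin genes had positive slopes and both Olig genes negative slopes, on time as on distance in the light. On distance in the light Olig1 had -0.13 ± 0.06 per SD (SE, edgeR p = 0.0421, adjusted p = 0.848) and Olig2 -0.14 ± 0.07 (SE, edgeR p = 0.0547, adjusted p = 0.848, n = 11). The slope of Olig1 was -0.05 (edgeR p = 0.512, n = 12) with mouse 5 in the fit and -0.08 (edgeR p = 0.181, n = 10) without mouse 9. Without mice 6 and 2, the farthest from the median distance, it was -0.21 (edgeR adjusted p = 0.144). The myelin genes ran from 0.04 ± 0.10 for Cnp to 0.18 ± 0.09 for Mal (SE, edgeR p = 0.0686, adjusted p = 0.848, n = 11). For distance 0% of genes were called, 5.8% had an unadjusted p under 0.05, and DESeq2 called 22 genes and 0 members. On time in the light Mag had the largest slope of the members, 0.19 ± 0.10 (SE, edgeR p = 0.0859, adjusted p = 0.9997, n = 11), in a fit that called 0.00742% of genes and gave 3.55% an unadjusted p under 0.05. Without mouse 6, the highest in Mag, its slope was 0.034 (edgeR adjusted p = 0.950). The median of the 9 members was 0.09 on time and 0.11 on distance, against -0.0032 and -0.0019 over all genes. Of the 32 other myelin genes 28 had positive slopes on each of these measures, 0 of them called. Since the members move together across mice, a shared sign across them is not a count of separate results.

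On total entries 6 of the 7 myelin genes had positive slopes and 1 a negative slope, 0 of them called. Their median was 0.07, against 0.00068 over all genes. Of the 32 other myelin genes 28 had positive and 4 negative slopes on this measure, 0 of them called. Mag had 0.21 ± 0.10 (SE, edgeR p = 0.0663, adjusted p = 0.743, n = 11) and Mog 0.18 ± 0.10, whereas Cnp and Mobp had -0.0054 and 0.01. On open-arm time the slopes of the 7 myelin genes ran from -0.06 for Mobp to 0.14 for Mag.

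The SIT measure was the ratio of direct (box) to distant (zone) time with a stranger mouse, over 3, 5 and 10 min. No member had an unadjusted p under 0.05 at any time, and mouse 4 has no ratio at 3 min. The largest slopes in size were those of Mag, -0.12, -0.13 and -0.16 at 3, 5 and 10 min (SE 0.12 at each), and of Olig1 at 10 min, -0.12 ± 0.06 (SE, edgeR p = 0.0789, adjusted p = 0.668, n = 11). Across all genes 0.015% were called at 3 min, 0.0111% at 5 min and 0.0223% at 10 min, and 7.65%, 6.56% and 8.05% had an unadjusted p under 0.05. The medians of the members, 0.03, -0.03 and -0.07, stood beside medians of 0.0037, -0.0061 and -0.0092 over all genes.

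**Figure D5:**
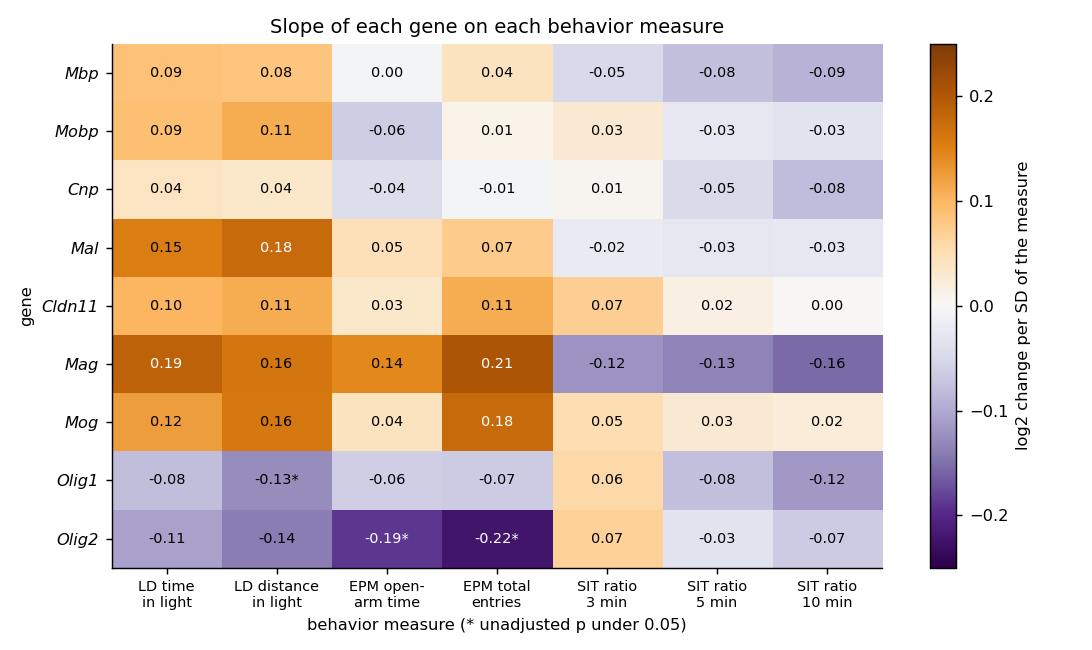
Log2 change per SD of each of 7 behavior measures (columns) for the 9 genes (rows), from edgeR fits over 11 mice (10 for the ratio at 3 min). Orange is positive, purple negative, and an asterisk marks an unadjusted p under 0.05. The 3 asterisks are all on Olig1 or Olig2, and the LD columns are positive for all 7 myelin genes and negative for both Olig genes.

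Genes whose pattern across the 11 mice was most like that of the members were sought among 12150 other genes with a mean of at least 5 CPM, by the correlation of log2 CPM with the mean z-score of the 9 members. The 10 highest were Fa2h (r = 0.98, rho = 0.95), Opalin (0.88, 0.92), Hapln2 (0.88, 0.77), Cntn2 (0.87, 0.86), Hs3st2 (0.87, 0.88), Adamts4 (0.86, 0.84), Cdr2 (0.86, 0.72), Prr18 (0.85, 0.67), Elovl7 (0.84, 0.87) and Tmem98 (0.84, 0.69). Of these 10, 5 were on the list of 32 other myelin genes. The 5 lowest were Ccser1 (-0.90), Lhx9 (-0.89), Rnf182 (-0.88), F730043M19Rik (-0.88) and Ttc26 (-0.88). With the profile of the 7 myelin genes alone, a choice made after seeing that the Olig genes differed, 5 of the 10 were shared and Fa2h was again the highest (r = 0.95, rho = 0.96). With Olig2 alone or Olig1 alone, 0 of the 10 were shared.

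Read against the 7 myelin genes, 25 of 29 other myelin genes with at least 5 CPM had r over 0.5 (86.2%), against 6.61% of all 12150 genes. Of 8 genes of the maturing lineage 3 did, with Myrf, the factor of myelin gene expression, the highest at 0.84, and of 12 precursor genes 0 did, the highest being Lhfpl3 at 0.46. These are correlations within the same 11 libraries, and the difference between the lists was not tested.

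Some genes of other brain tissue shared that profile. Of 7 striatal-type genes with at least 5 CPM, 6 had r over 0.5 (median 0.78), led by Drd1, a dopamine receptor of striatal projection neurons, at 0.84. The 8 striatal-type genes summed to 1140 CPM in mouse 12, 879 in mouse 7, 822 in mouse 6, 652 in mouse 1, 601 in mouse 9 and 528 in mouse 10. They summed to 407 CPM in mouse 3, 391 in mouse 2, 362 in mouse 8, 344 in mouse 4 and 319 in mouse 11. The 3 mice low in myelin genes, 2, 8 and 11, were thus among the 4 lowest here, and mouse 12 was the highest. Of 11 microglial genes 7 had r over 0.5, of 10 endothelial genes 4, of 12 astrocyte genes 2 and of 14 neuronal genes 2. Lists of other regions went both ways. Of 6 thalamic genes 2 had r over 0.5 and 2 under -0.5 (median -0.0031), and of 10 amygdala genes 4 had r over 0.5 and 1 was at -0.77 (median 0.17). The summed pituitary genes were high in mouse 4, mostly through Prl (31.9 CPM) and Gh (19.9 CPM). They were also high in mouse 11, the lowest in Mbp, with Pomc at 7.18 CPM and Prl at 4.57 CPM. Tshb, Pitx1 and Pou1f1, of the same list, were highest in mice 3, 7 and 6. The part of dissected tissue around the amygdala in the spread of the myelin genes was not tested.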

How the data were processed

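Stranded mRNA libraries, 1 per mouse, were read single-end on 1 NextSeq500 run. The authors trimmed reads with cutadapt, used STAR alignments to mm10 for quality checks, quantified with Salmon and summed to genes with tximport; the deposited values are their estimated counts per gene, unnormalized and all whole numbers. The labels name CASAVA, Salmon and DESeq2 without versions. The settings of Salmon for strand are not given in the sources used here. Columns were matched to mice by the number in the column name and the sample title.

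Of 47729 genes, 47310 matched GENCODE M21 (99.1%). Depth was 31745630 to 45142355 counts per library, and intervals from counting alone would not cover differences between mice. CPM used TMM factors. Genes with at least 10 counts in total were tested with edgeR 4.0.16 (R 4.3.3; robust quasi-likelihood F-test, Benjamini-Hochberg over all genes tested) in the 11 grouped mice. Groups were fitted together with PC1, computed here from the variance-stabilized counts of 34511 genes (19.9% of the variance). The study also took PC1 as a covariate, and states that its analyses without mouse 5 used all 47729 genes. The transformation behind its components is not given in the sources used here, so its scores may differ. On PC2 as computed here mouse 6, labelled more anxious, stood at 0.32, within the anxious mice at -4.92 to 7.99. Behavior measures were standardized and fitted without covariates. SE is the log2 estimate over the square root of F. Correlations used log2 CPM with a prior count of 2 and 100000 permutations, two-sided. Scripts were tested on simulated data. Alternatives were DESeq2 1.42.0, other scalings and filters, other designs and leaving out each mouse.

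Each mouse is 1 sample, so p-values measure the spread between mice. Members, gene lists and motifs were chosen with earlier results of these data known. All 9 members are named; of other lists, genes are named by level per kb, by correlation, or where singled out after their values were seen (Gpr17, Sox10, Myrf, Lhfpl3, Drd1, Foxd3). Promoters come from RefSeq, GRCm38.p6; Mbp and Olig1 had no entry.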

Additional observations from a re-analysis of the deposited data

How the results depend on the processing

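Across the alternatives no member was called in any comparison, except Olig2 on total entries with the DESeq2 likelihood ratio test (1 member called, adjusted p = 0.0382), and its adjusted p over the alternatives ran from 0.0382 to 0.9997. Its slope on total entries stayed between -0.24 and -0.15, with an unadjusted p under 0.05 in 20 of 20 alternatives. Olig2 on open-arm time had one in 18 of 20, Olig1 on distance in the light in 12 of 20 and Olig1 between more and less anxious mice in 14 of 18.

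The number of genes called depended on the processing. Over the 3 groups it was 2, and 186 with DESeq2, 0 with filterByExpr or without PC1, 9 without a count filter, 1 without robust fitting and 22 with the groups as an ordered number. For more against less anxious mice it was 12, and 305 with DESeq2, 2 with filterByExpr or without robust fitting, 3 without PC1, 25 without a count filter and 22 with ordered groups. With DESeq2 it was 5 for time and 22 for distance in the light, 38 for maze entries, 43 for time on the open arms and 165, 43 and 111 for the social ratio at 3, 5 and 10 min. Time in the light gave 0 with filterByExpr, ranks or PC1, 4 without a filter, and 1 without robust fitting or with mouse 5. Open-arm time gave 1 with DESeq2 size factors, without a filter or with mouse 5, and 2 without robust fitting. The ratio at 3 min gave 1 with filterByExpr, 11 without a filter and 2 with PC1. At 5 min it was 0 with filterByExpr, ranks or PC1, 7 without a filter and 6 with mouse 5, and at 10 min 0 with filterByExpr or ranks, 10 without a filter and 2 with PC1. The cause of these changes was not tested. With each mouse left out in turn, the 3 groups gave 0 to 4 genes, more against less 0 to 24, time in the light 0 to 16, distance 0 to 14, open-arm time 0 to 3, total entries 0 to 5, and the ratios 1 to 6, 1 to 5 and 1 to 9.

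A sign was read only where a value exceeded its standard error. On that reading 1 of 1353 values of the members turned, Cnp on the ratio at 3 min, which ran from -0.11 without mouse 9 to 0.063 without mouse 7 (0.0050 in the full fit). A further 73 values, from 28 slopes or differences, changed sign with both values under their standard errors, so the small differences of the myelin genes between more and less anxious mice and their small slopes on open-arm time, total entries and the social ratios carry no direction. Of the 10 genes most like the members, 7 were shared with mouse 5 included and 4 with Spearman's rho. No paired analysis was possible because each mouse has its own number and belongs to 1 group. The precision is limited by 3 or 4 mice per group rather than by depth.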
